A study of Mus musculus with 10 samples.

Results

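The core circadian clock transcripts were measured in 10 male mice, in dentate gyrus dissected from the hippocampus, a region built mainly of granule neurons. The 10 genes were taken by name from the count table, which has 24982 genes: Dbp, Nr1d1, Nr1d2, Per1, Per2, Per3, Cry1, Cry2, Arntl and Clock. All 10 were among the 14867 genes that passed the filter on low counts. The mice were 5 global knockouts of Fndc5 (KO), the gene of the precursor of the myokine irisin, and 5 wild types (WT), all aged 10 weeks and on a C57BL/6 background. Each mouse gave 1 library of bulk poly(A) RNA. No source used here gives the hour of tissue collection, and the knockout was present in every tissue.

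The mammalian clock is a feedback loop of transcription. CLOCK and ARNTL (also called BMAL1) bind E-box elements as a pair and drive the Per and Cry genes, whose proteins return to the nucleus and inhibit that pair. A second loop runs through NR1D1 and NR1D2 (the REV-ERB proteins), repressors that bind ROR response elements and act on Arntl and Clock, and an output branch runs through DBP, an activator that binds D-box elements. In most mouse tissues Dbp and Nr1d1 transcripts swing widely over the day and nearly in opposite phase to Arntl, while Clock changes little. The hippocampus holds such clocks in its own cells, and Per1 there is also induced by neuronal activity and by glucocorticoid hormone.

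The regulatory letters of this loop can be read upstream of the members' start sites. RefSeq promoter windows (GRCm38.p6) were found for 9 of the 10 members. Per2 had no window and was not searched. In the others, 4 motifs were searched on both strands of the 250 bases before to 50 after each start. They were the E-box CACGTG, its variant CACGTT, the D-box TTATGTAA and TAGGTCA, the core of a ROR response element. None of these 4 letter strings overlapped another in the members' windows. The first 2 sequences below belong to the pair of members that varied most alike over the mice, Per3 has D-boxes, and Cry1 has both kinds of E-box. Each is the 250 bases before the start in the direction of transcription, with motifs in capitals.
Dbp, chr7:45704997-45705246, plus strand: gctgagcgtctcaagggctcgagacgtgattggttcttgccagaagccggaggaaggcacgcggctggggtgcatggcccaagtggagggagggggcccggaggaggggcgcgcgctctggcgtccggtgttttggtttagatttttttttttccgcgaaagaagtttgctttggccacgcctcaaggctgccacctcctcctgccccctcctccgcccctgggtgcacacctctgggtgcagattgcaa
Nr1d1, chr11:98775378-98775627, minus strand: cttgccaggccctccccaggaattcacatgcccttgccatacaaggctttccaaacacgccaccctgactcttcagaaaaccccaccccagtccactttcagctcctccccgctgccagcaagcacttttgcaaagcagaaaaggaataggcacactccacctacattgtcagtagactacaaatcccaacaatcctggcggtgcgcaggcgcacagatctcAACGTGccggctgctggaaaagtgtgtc
Per3, chr4:151044666-151044915, minus strand: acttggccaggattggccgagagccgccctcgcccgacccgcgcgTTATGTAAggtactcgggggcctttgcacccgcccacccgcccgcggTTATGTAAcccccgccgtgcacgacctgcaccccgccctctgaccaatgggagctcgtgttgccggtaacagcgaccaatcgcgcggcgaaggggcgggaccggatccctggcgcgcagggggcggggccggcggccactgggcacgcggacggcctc
Cry1, chr10:85185055-85185304, minus strand: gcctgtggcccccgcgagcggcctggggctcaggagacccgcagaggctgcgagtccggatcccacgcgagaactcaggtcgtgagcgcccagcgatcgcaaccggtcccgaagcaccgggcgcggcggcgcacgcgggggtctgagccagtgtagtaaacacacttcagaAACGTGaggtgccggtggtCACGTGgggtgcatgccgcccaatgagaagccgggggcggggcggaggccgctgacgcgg

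Nr1d1 had CACGTT on its reverse strand, starting 28 bases before the start site, and Cry1 had CACGTG at 60 bases and the reverse complement of CACGTT at 79 bases before it. Per3 had TTATGTAA at 205 and at 158 bases before its start, a motif found in 0.931% of the 32544 mouse promoter windows of 300 bases. CACGTG was found in 7.17% of those windows, CACGTT in 4.71% and TAGGTCA in 2.61%. Per1 had CACGTG 166 bases before the upstream of its 2 listed starts, and Cry2 had the reverse complement of CACGTT 166 bases before its start. Arntl had TAGGTCA 31 bases after the downstream of its 2 listed starts, at chr7:113207531-113207557 on the plus strand, shown with 10 bases on either side.
Arntl, site: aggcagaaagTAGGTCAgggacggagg
None of the 4 strings was in the windows of Dbp, Nr1d2 or Clock, which says only that these letters are not there.

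The knockout label was checked first. Fndc5 was at 50.9, 45.4, 53.9, 49.7 and 56.7 CPM (read counts scaled to a common library size by TMM) in KO mice 1 to 5, against 78.9, 69.2, 72.2, 80.3 and 76.1 CPM in WT mice 1 to 5. Every KO mouse was below every WT mouse, and the fitted level in KO was 0.681-fold that in WT (95% interval 0.627 to 0.740). Most Fndc5 reads thus remained in the KO mice, and what transcript they come from was not tested. Libraries held 26226375 to 43802079 counts, and each member had between 368 and 6828 counts in a library. Summed markers of dentate granule neurons were at 1684.54 to 1827.6 CPM in KO and 1520.42 to 1799.02 CPM in WT, with 8 of 8 markers past the filter. Of 6 markers of the suprachiasmatic nucleus, the master clock of the brain, 4 passed the filter, with a sum of 8.25 to 9.38 CPM in KO and 9.32 to 12.5 CPM in WT, while Avp had at most 11 counts and Nms at most 1. Vip, among those that passed, is also a listed marker of GABAergic interneurons, so this sum is not a measure of that nucleus alone. The KO and WT ranges of the sum overlapped, and its difference was not tested. In bulk tissue, fewer cells of a type and less RNA per cell cannot be told apart.

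In GRCm38 with GENCODE M21, Dbp lies at chr7:45705088-45710203 and Arntl at chr7:113207465-113314126, both on the plus strand. Nr1d1 lies at chr11:98767932-98775333 and Nr1d2 at chr14:18204054-18239127, both on the minus strand. Per1 lies at chr11:69095217-69109960 on the plus strand, and Per2 at chr1:91415982-91459324 and Per3 at chr4:151003652-151044665 on the minus strand. Cry1 at chr10:85131700-85185064, Cry2 at chr2:92403646-92434043 and Clock at chr5:76209868-76304792 are on the minus strand.

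Per kilobase of exon (the union of GENCODE M21 exons), Nr1d1 stood highest at 29.5 ± 2.93 CPM per kb in KO and 28.2 ± 3.10 CPM per kb in WT (SD, n = 5 each), at the 89.5th percentile of the 14757 tested genes with a length. Cry2 followed at 25.7 ± 1.16 CPM per kb in KO and 25.3 ± 1.504 CPM per kb in WT. The libraries' ranges of Nr1d1 and Cry2 per kb overlapped, and with the length of the longest transcript in place of the union Cry2 came first. A middle group of Per1, Dbp, Nr1d2, Per2 and Per3 averaged 16.2, 14.2, 14.1, 11.2 and 10.7 CPM per kb over the 10 mice, and each overlapped its neighbour within the group in range. Arntl, Clock and Cry1 were lowest, at 5.32, 5.04 and 4.47 CPM per kb, and also overlapped their neighbours within this group. By exon union the 2 groups were apart, with Per2, the lowest of the middle group, at 8.96 CPM per kb or more in every library. Arntl, the highest of the low group, was at 6.02 or less. With the length of the longest transcript Per2 averaged 11.2 and Arntl 10.0 CPM per kb, so this separation is given for the exon union only.

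None of the 10 clock transcripts passed the test between KO and WT. Dbp had the largest fitted change, 1.15-fold higher in KO with a 95% interval of 0.945 to 1.40, and Clock the next largest, 0.938-fold with an interval of 0.870 to 1.01. By edgeR's quasi-likelihood test with Benjamini-Hochberg adjustment over all 14867 genes, 0 of 10 members passed 0.05, with adjusted p from 0.80 to 0.968, and DESeq2 called 0 as well. Over all genes 0.00673% passed, which is Fndc5 alone. At an unadjusted p under 0.05 there were also 0 of 10 members, against 6.29% of all genes, of which 40.43% were higher in KO under TMM and 57.41% under upper-quartile scaling. The CPM ranges of the KO and WT mice overlapped for 10 of 10 members, while they were separate for 0.895% of all genes (KO higher in 0.457% and KO lower in 0.437%). Members were higher in KO for 4 and lower for 6, with a median log2 fold change of -0.026, against 0.0016 over all genes tested, of which 50.7% were higher. The intervals of all 10 lay between 0.821-fold and 1.40-fold, the bounds of Per2 and of Dbp.

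**Figure D1:**
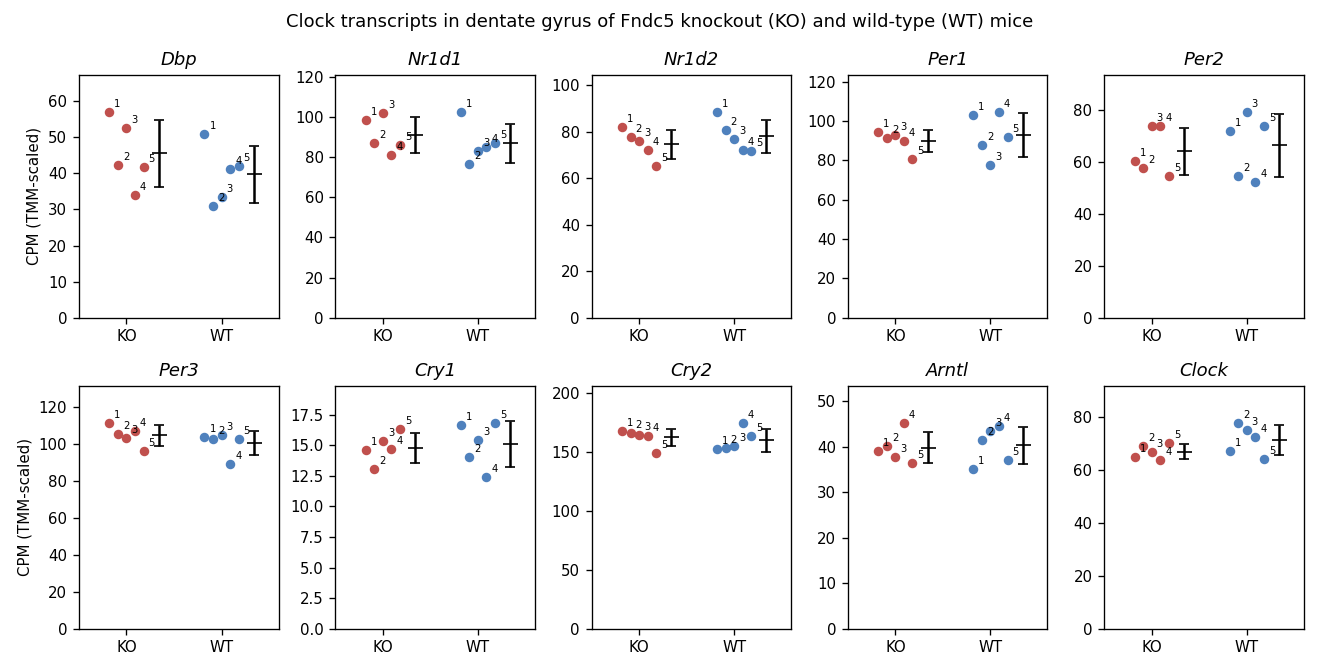
CPM (TMM-scaled, axis from 0) of each of the 10 clock transcripts in KO mice (left, red) and WT mice (right, blue), with the mouse number beside each point and the mean ± SD (n = 5) as a black bar. The 2 genotypes overlap in every panel, and Dbp, between 31.0 and 57.1 CPM, has the largest ratio of highest to lowest mouse, 1.84.

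Dbp, the D-box activator of the output branch, was at 57.1, 42.2, 52.6, 34.1 and 41.7 CPM in KO mice 1 to 5, against 50.97, 31.0, 33.6, 41.1 and 42.0 CPM in WT mice 1 to 5. The high mice were KO 1, KO 3 and WT 1 and the low ones WT 2, WT 3 and KO 4, so each end held both genotypes. The means were 45.5 ± 9.21 CPM in KO and 39.7 ± 7.88 CPM in WT (SD, n = 5 each), with a log2 fold change of 0.20 (SE 0.13, interval -0.08 to 0.48, edgeR adjusted p = 0.806). That value was 0.11 without KO mouse 1 and 0.31 without WT mouse 1, and without WT mouse 1 the unadjusted p of Dbp, Nr1d1 and Clock was under 0.05 in edgeR, for 3 of 10 members, with adjusted p of 0.683, 0.697 and 0.697.

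Nr1d1, the REV-ERB alpha repressor, was at 98.6, 87.2, 102.1, 80.8 and 85.9 CPM in KO mice 1 to 5, against 102.5, 76.7, 83.0, 84.8 and 86.8 CPM in WT mice 1 to 5. The same 3 mice as for Dbp were highest, and the same 3 were lowest. Its log2 fold change was 0.07 (SE 0.073). Nr1d2, the related REV-ERB beta repressor, averaged 74.5 ± 6.37 CPM in KO and 77.9 ± 6.94 CPM in WT (SD, n = 5 each), with a log2 fold change of -0.06 (SE 0.064).

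Among the Period genes, which encode the inhibitors that act with CRY proteins, Per2 was the most variable. It was at 60.3, 57.8, 74.1, 74.0 and 54.8 CPM in KO mice 1 to 5, against 71.9, 54.7, 79.4, 52.5 and 73.9 CPM in WT mice 1 to 5. The 5 mice at 71.9 CPM or more (WT 3, KO 3, KO 4, WT 5 and WT 1) and the 5 at 60.3 CPM or less each held both genotypes. Its log2 fold change was -0.05 (SE 0.11). Per1 averaged 89.9 ± 5.49 CPM in KO and 93.0 ± 11.2 CPM in WT, with a log2 fold change of -0.05 (SE 0.070). Per3 averaged 105 ± 5.74 CPM in KO and 101 ± 6.53 CPM in WT, with a log2 fold change of 0.06 (SE 0.049).

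The cryptochromes are the main repressors of the CLOCK and ARNTL pair. Cry1 averaged 14.8 ± 1.20 CPM in KO and 15.1 ± 1.88 CPM in WT (log2 fold change -0.03, SE 0.084). Cry2 averaged 163 ± 7.35 CPM in KO and 160 ± 9.50 CPM in WT (log2 fold change 0.02, SE 0.044), and after a correction for GC content and transcript length its value was -0.0031.

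Of the activator pair, Arntl was at 39.1, 40.2, 37.7, 45.3 and 36.4 CPM in KO mice 1 to 5, against 35.0, 41.5, 43.5, 44.4 and 37.0 CPM in WT mice 1 to 5. KO 4 and WT 4 were highest and WT 1 lowest, and the log2 fold change was -0.02 (SE 0.070). Clock was at 64.8, 69.1, 66.8, 63.6 and 70.3 CPM in KO mice 1 to 5, against 67.1, 77.9, 75.0, 72.4 and 64.2 CPM in WT mice 1 to 5. WT mice 2, 3 and 4 were above every KO mouse, and WT 5 was below all but 1 KO mouse. The log2 fold change of Clock was -0.09 (SE 0.052, interval -0.20 to 0.016, edgeR adjusted p = 0.80). After the GC and length correction, chosen after seeing the data, it was -0.026, and Clock transcripts lie at the 8.36th percentile of GC content among tested genes.

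**Figure D2:**
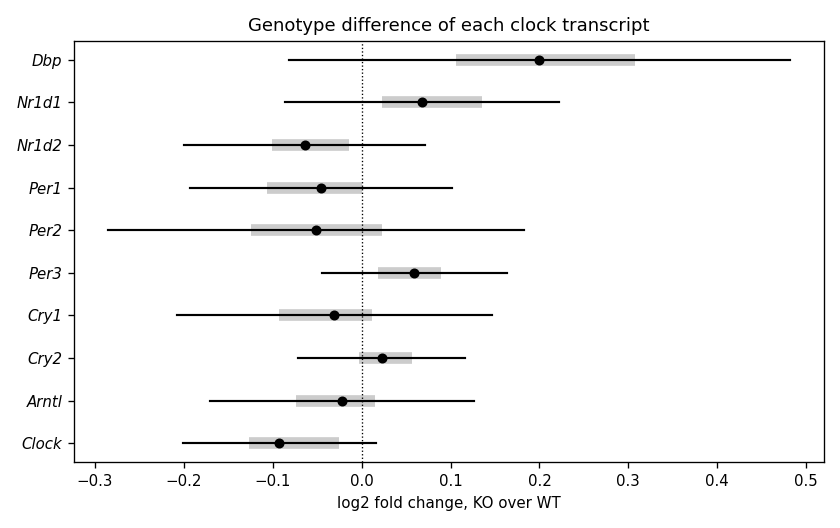
Log2 fold change of each clock transcript, KO over WT (points), with its 95% interval from the edgeR fit (black lines) and the range of the estimate over 17 alternative analyses (grey bars). The interval of each of the 10 crosses 0, and Dbp lies farthest right at 0.20.

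Exons of other genes on the opposite strand overlap 4 members. Dbp shares 539 exonic bases with Sphk2, a sphingosine kinase gene, and Nr1d1 shares 263 with Thra, the thyroid hormone receptor alpha gene. The libraries were stranded, but no source used here says whether the counting used strand. Thra was at 919 ± 22.03 CPM in KO and 886 ± 34.9 CPM in WT (SD, n = 5 each), and Sphk2 at 30.7 ± 1.49 CPM in KO and 29.5 ± 3.11 CPM in WT. Neither passed in edgeR (log2 fold changes 0.05, SE 0.034, and 0.06, SE 0.066). Cry2 shares 295 bases with D930015M05Rik, which had at most 7 counts, and Arntl shares 33 bases with Gm45355, not analysed here.

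The members differed in how much they varied between mice. The biological coefficient of variation (BCV), the spread between mice of a genotype beyond counting error as fitted by edgeR, was 14.5% for Dbp, at the 91.4th percentile of the 14867 genes. Per2 followed with 12.2% (85.6th percentile). Cry1, Nr1d1, Per1, Arntl and Nr1d2 were between 8.46% and 7.09% (68.4th to 56.4th percentile). Clock (5.73%), Per3 (5.59%) and Cry2 (5.21%) were below the median gene, at the 38.4th, 35.9th and 27.9th percentiles. The median percentile of the 10 was 62.3. For Dbp the SD over mice was 20.2% of the mean in KO and 19.8% in WT, against a counting error of 2.79%, and its highest library was 1.84-fold above its lowest. For Cry1, the member with fewest counts, the SD was 8.09% of the mean in KO and 12.4% in WT, against a counting error of 4.66%.

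Dbp and Nr1d1 varied together over the mice. On log2 CPM over the 10 libraries Pearson's r was 0.94 (permutation p = 0.0002) and Spearman's rho 0.94 (permutation p = 0.00031), both two-sided. Among all tested genes this r lay at percentile 99.96, but the p adjusted over all 14866 genes was 0.0619, above 0.05. Without KO mouse 1 and WT mouse 2, the 2 farthest from the median of Dbp, r was 0.93. KO 1, KO 3 and WT 1, at 50.97 CPM or more, stood apart from the others at 42.2 CPM or less, and within those 7 libraries r was 0.93 (exact permutation p = 0.00198) and rho 0.96 (exact permutation p = 0.00278). With values centred within genotype r was also 0.94, and the adjusted permutation p was then 0.0425, where centred values were permuted over all mice; by the count of members, 1 of 9 then passed, with 1.04% of all genes under the same centring, against 0 of 9 and 0.0% of all genes without it.

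The r of Arntl with Dbp was below 0 and did not pass the threshold. Its r with Dbp was -0.64 (permutation p = 0.051, adjusted over all genes 0.279) and its rho was -0.60 (permutation p = 0.0735), and r was -0.76 without KO mouse 1 and WT mouse 2. Within the 7 libraries with lower Dbp it was -0.55 (exact permutation p = 0.21). The ratio of Dbp to Arntl CPM, given as a description, was 1.46, 1.05, 1.39, 0.752 and 1.15 in KO mice 1 to 5, against 1.46, 0.746, 0.771, 0.926 and 1.14 in WT mice 1 to 5. The 3 mice with the highest ratio were KO 1, WT 1 and KO 3, and the 3 with the lowest were WT 2, KO 4 and WT 3. Neither end of that order belonged to 1 genotype.

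**Figure D3:**
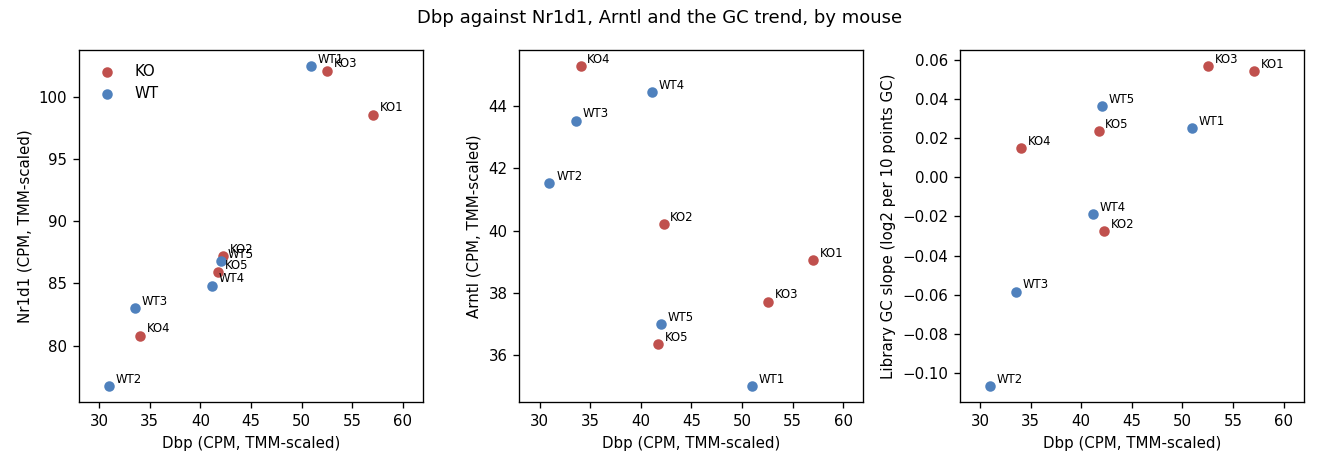
Dbp CPM of each mouse (x axis) against Nr1d1 CPM, Arntl CPM and the slope of the library's log2 deviation on GC content (log2 per 10 percentage points of GC), with KO in red and WT in blue. Nr1d1 rises along Dbp (r = 0.94), Arntl falls along it (r = -0.64), and the GC slope rises with Dbp in the right panel, where WT 2 is lowest.

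The GC trend of the libraries moved with these values, and the correlations are given with and without it. The slope of a library's log2 deviations on GC content, per 10 percentage points, was 0.0543, -0.0276, 0.0567, 0.015 and 0.0238 in KO mice 1 to 5, against 0.0253, -0.107, -0.0585, -0.0187 and 0.0363 in WT mice 1 to 5. The slope correlated with Dbp (r = 0.80, permutation p = 0.00462, rho 0.83, permutation p = 0.0046) and with Clock (r = -0.87, permutation p = 0.00131, rho -0.72, permutation p = 0.0238). Over the 16 relations of 4 library properties with Dbp, Nr1d1, Arntl and Clock, the adjusted permutation p of r was 0.037 for Dbp, 0.021 for Clock, 0.0783 for Nr1d1 and 0.467 for Arntl. By rho none of the 16 passed, the lowest adjusted permutation p being 0.0736. Without the 2 libraries farthest from the median slope, r was 0.58 for Dbp and -0.60 for Clock. Transcripts of Dbp lie at the 97.8th percentile of GC content and those of Nr1d1 at the 85.4th.

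With the GC and length trend of each library removed, a step added after seeing the data, r between Dbp and Nr1d1 was 0.90 (permutation p = 0.00126, adjusted 0.237), above 99.9% of genes. Spearman's coefficient was 0.88 (permutation p = 0.0017). Arntl kept an r of -0.62 with Dbp (permutation p = 0.0596, adjusted 0.44, rho -0.56, permutation p = 0.0967). Clock went to an r of -0.03 with Dbp after the correction, against -0.58 before it. Uncorrected, the r of Clock was -0.24 without KO 1 and WT 2, -0.37 without WT 2 and -0.85 without KO 4. Nr1d2 went the other way, to 0.61 after the correction (permutation p = 0.0622, adjusted 0.446), against 0.29 before it, and its r with Nr1d1 was 0.77 after and 0.44 before. Uncorrected, the r of Nr1d2 with Dbp was 0.11 without WT 1, 0.15 without KO 1 and 0.50 without WT 2, and it turned to -0.58 in the 7 libraries with lower Dbp (exact permutation p = 0.176). The rest of the members had r with Dbp of -0.10 (Per2), 0.05 (Per3), 0.13 (Cry1), -0.07 (Cry2) and 0.29 (Per1) after the correction, against 0.04, 0.16, 0.19, 0.27 and 0.52 before it, none with an adjusted permutation p under 0.78 after it.

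**Figure D4:**
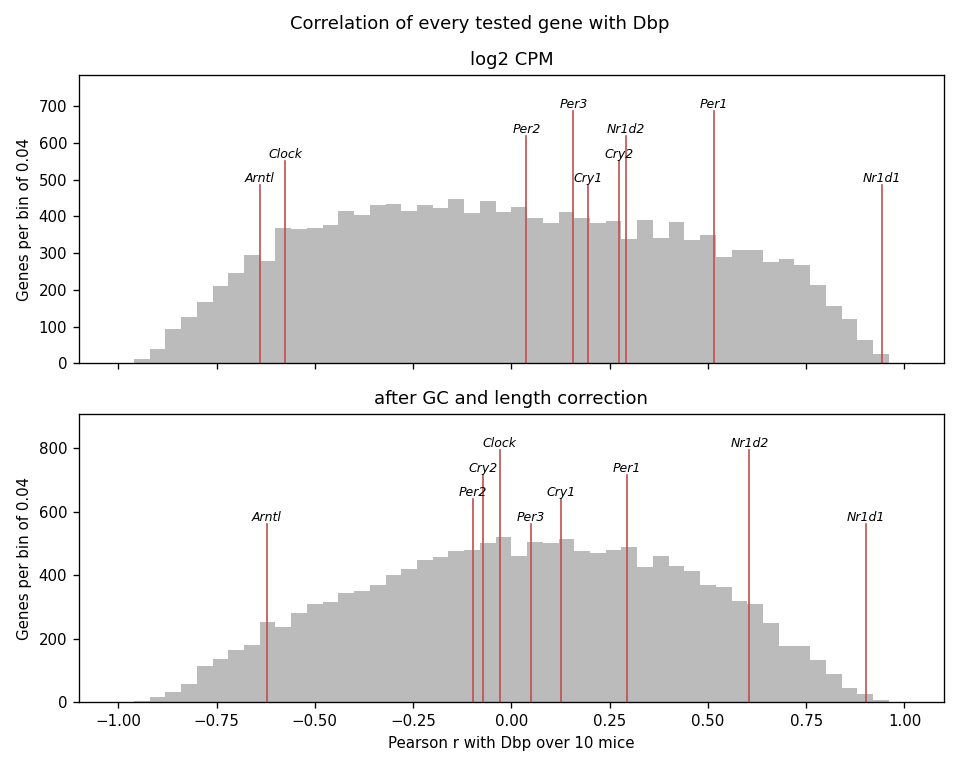
Number of genes by Pearson r with Dbp over the 10 mice, on log2 CPM (top) and after the GC and length correction (bottom), with the other 9 clock transcripts marked in red. Nr1d1 lies in the right tail in both panels, at 0.94 and 0.90, while Clock lies at -0.58 in the top panel and at -0.03 in the bottom one.

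Of the 45 pairs, 6 had an r of at least 0.6 in size on log2 CPM, or 13.3%, against 10.2% of all pairs of tested genes, and the median size of r was 0.318 against 0.272. After the GC and length correction the share was 17.8% against 8.72% and the median 0.206 against 0.26. These pairs share the same 10 libraries and are not independent. Cry1 and Arntl had an r of -0.67 (permutation p = 0.0349, rho -0.67, permutation p = 0.0391), which was -0.70 without KO 2 and WT 4. Nr1d1 and Arntl had -0.66 (permutation p = 0.0441, rho -0.72, permutation p = 0.0232), which was -0.45 without KO 3 and WT 1. Cry1 and Cry2 had -0.64 (permutation p = 0.045, rho -0.61, permutation p = 0.0649), but -0.27 without KO 2 and WT 4, and -0.83 after the GC and length correction. Per2 and Cry1 had 0.60 (permutation p = 0.0698, rho 0.54, permutation p = 0.115), and 0.47 without WT 3 and WT 4. Adjusted over all genes for the first gene of each pair, the permutation p was 0.706, 0.259, 0.71 and 0.915 for these 4 pairs. Arntl and Clock, partners in 1 protein complex, had an r of 0.32 (permutation p = 0.366, rho 0.16, permutation p = 0.657), 0.67 without KO 4 and WT 1, and 0.07 after the GC and length correction.

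**Figure D5:**
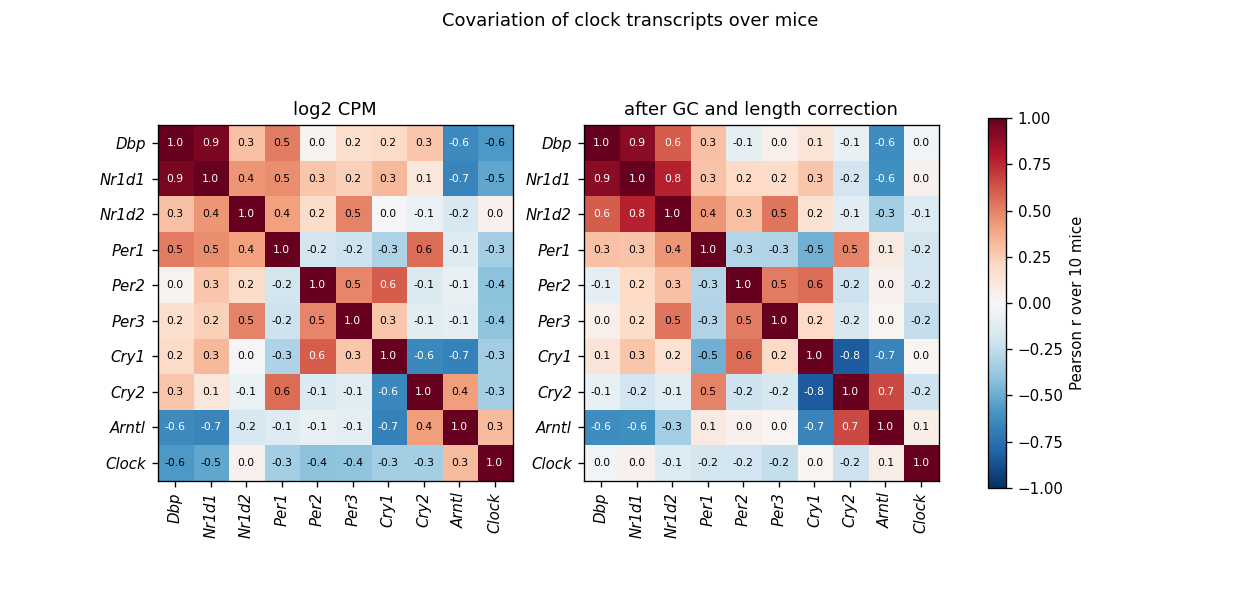
Pearson r of log2 CPM over the 10 mice for each pair of clock transcripts (left) and after the GC and length correction (right), coloured from -1 (blue) to 1 (red). Dbp with Nr1d1 is the deepest red pair in both panels, and the blue of Clock with Dbp and Nr1d1 is seen only on the left.

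The genes whose pattern was most like that of Dbp over the 10 libraries were named by a rule on r. Those with the highest r outside the members were Dvl3, Rnf208, Pigt, Mafk, Eml2, Gfra4 and Klf15, with r of 0.98 to 0.94. Klf15 encodes a transcription factor that oscillates in several mouse tissues and responds to glucocorticoids. These 7 lie between the 76.7th and the 97.5th percentile of GC content, and their r after the GC and length correction was 0.97 to 0.89. The 5 most opposite were Mgea5, Trim59, Zfp33b, Ccdc127 and Mlh3, with r of -0.97 to -0.93. Of these, 4 have a GC content in the tables used, between the 1.57th and the 33.5th percentile, and after the correction their r was -0.97 for Mgea5, -0.95 for Mlh3, -0.87 for Trim59 and -0.65 for Ccdc127. None of the 14866 genes reached an adjusted permutation p under 0.05 (lowest 0.0541), with 18.1% at an unadjusted p under 0.05, and 11.7% after the correction. The smallest p that 100000 permutations can give is 1e-05.

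Among further clock transcription factors, all 11 listed were measured, 7 higher and 4 lower in KO with a median log2 fold change of 0.017. In edgeR 0 passed over all genes, and 1 had an unadjusted p under 0.05, against 6.29% of all genes. That 1 was Bhlhe40 (DEC1), a repressor at E-boxes, at 102 ± 10.6 CPM in KO and 91.8 ± 8.09 CPM in WT (SD, n = 5 each; log2 fold change 0.16, SE 0.068, edgeR adjusted p = 0.788). Npas2, a paralog that can stand in for CLOCK, had a log2 fold change of -0.12 (SE 0.096), Rorb, an activator at ROR response elements, -0.10 (SE 0.089; -0.04 after the GC and length correction) and Tef, a D-box activator related to DBP, 0.06 (SE 0.043). Of the 11, 5 had an r with Dbp above 0 and 6 below, with a median of -0.00094, and 0.33 after the GC and length correction. Ciart, a repressor of the CLOCK and ARNTL pair, had the highest r with Dbp on this list, 0.86 (permutation p = 0.0021, adjusted 0.0973, rho 0.83), and 0.87 after the GC and length correction. The lowest was that of Rorb, -0.77, and -0.67 after the correction.

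The kinases, ubiquitin ligases and partners that act on clock proteins had small differences, none past the test. Of 12 measured, 2 were higher and 10 lower in KO (median log2 fold change -0.042), where 50.7% of all genes tested were higher. Of the 12, 0 passed the threshold in edgeR and 0 had an unadjusted p under 0.05. Prkaa1 and Prkaa2, catalytic subunits of AMP-activated kinase, had log2 fold changes of -0.07 (SE 0.038) and -0.09 (SE 0.051), Gsk3b -0.08 (SE 0.043) and Csnk1e, casein kinase 1 epsilon, -0.04 (SE 0.032). The KO and WT ranges of Prkaa1 did not overlap, KO lower, at 46.4 to 48.3 CPM in KO and 48.5 to 52.3 CPM in WT, as for 0.437% of all genes. After the GC and length correction the log2 fold change was -0.0055 for Prkaa1, -0.03 for Prkaa2, -0.05 for Gsk3b and -0.07 for Csnk1e, and Prkaa1 and Prkaa2 lie at the 6.20th and 7.55th percentile of GC content. Of 8 rhythmic output genes 3 were higher and 5 lower (median -0.030), with 0 past the threshold and 0 at an unadjusted p under 0.05. Nampt, the NAD salvage enzyme, was at -0.06 (SE 0.035), and its r with Dbp was -0.83 on log2 CPM but 0.19 after the GC and length correction. Of the 8, 5 had an r with Dbp above 0 and 3 below, with a median of 0.50, and 0.26 after the correction. Tsc22d3 (0.10, SE 0.16), Wee1 (-0.04, SE 0.061) and Lonrf3 (-0.04, SE 0.061) had differences smaller than their standard errors.

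Glucocorticoid-responsive genes mostly had a positive r with Dbp over the mice. Of 15 measured, 13 had an r with Dbp above 0, with a median of 0.61 on log2 CPM and 0.56 after the GC and length correction, where the medians of all genes were -0.02 and 0.05. The genes of a list share the same 10 libraries and are not independent. Tsc22d3 is also on the list of rhythmic output genes, and Dusp1 on that of activity-regulated genes. None of the 15 reached an adjusted permutation p under 0.05. Nfkbia (r = 0.87, permutation p = 0.00158, adjusted 0.091), Tsc22d3 (r = 0.78, permutation p = 0.00906, adjusted 0.149) and Fkbp5 (r = 0.71, permutation p = 0.0244, adjusted 0.208) were among the highest. Between genotypes 10 of the 15 were higher and 5 lower in KO (median log2 fold change 0.058), with 0 past the threshold in edgeR and 0 at an unadjusted p under 0.05. Nfkbia, an inhibitor of NF-kappa-B, had a log2 fold change of 0.19 (SE 0.099), Cdkn1a, a cell cycle inhibitor, 0.13 (SE 0.12), Plekhf1 0.20 (SE 0.23) and Fkbp5, a glucocorticoid receptor co-chaperone, 0.06 (SE 0.068). Activity-regulated genes, transcribed by neurons after firing, had an r with Dbp below 0 for 17 of 19, with a median of -0.49 before and -0.53 after the correction. Both genotypes were pooled in this r, and Dbp was fitted higher in KO (log2 fold change 0.20), while these genes were chosen knowing that they were lower in KO. How much of the negative r came from genotype was not tested. In the KO these genes were lower for 19 of 19, where 50.7% of all genes tested were higher. Of the 19, 0 passed the threshold in edgeR and 14 had an unadjusted p under 0.05, against 6.29% of all genes. This list was chosen with that direction known. Per1, which such activity can induce, had a log2 fold change of -0.05. The median of the list was -0.23, with Egr3 at -0.016 (SE 0.046) and Egr4 at -0.023 (SE 0.11). The 4 on the list with the smallest p were Npas4 (-0.76, SE 0.15), Fosb (-0.51, SE 0.10), Fosl2 (-0.21, SE 0.046) and Fos (-0.58, SE 0.18), all activity-induced transcription factors. Their edgeR adjusted p were 0.56, 0.56, 0.788 and 0.788, and DESeq2 called Npas4 and Fosb (adjusted p = 0.00627 and 0.00815). Without WT mouse 1, edgeR called Npas4 as well (adjusted p = 0.0176).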

How the data were processed

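RNA of 10 dentate gyri was sequenced as stranded poly(A) libraries from 500 ng of total RNA with single-end reads of 75 bases, per the labels' protocols. The values the authors deposited are whole-number read counts per gene, not normalized, and every sample column was mapped. STAR 2.5.1b, Cufflinks 2.2.1 and the build mm10 are named in the submitters' processing notes with no role or order; no source used here gives the counting annotation or strand setting. Groups came from the sample titles, 1 mouse per library, and the least different pair of libraries of a genotype had a chi-square over degrees of freedom of 4.47, so none was a duplicate.

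Genes were filtered with filterByExpr (14867 kept), scaled by TMM and compared between genotypes with edgeR 4.0.16 (glmQLFit, glmQLFTest) in R 4.3.3, with Benjamini-Hochberg adjustment over all genes and a threshold of 0.05. Standard errors are the log2 fold change over the root of F, and 95% intervals use Student's quantiles. Correlations used log2 CPM with a prior count of 2, two-sided permutation tests of 100000 pairings (exact under 10 libraries), adjusted over all genes for each anchor gene. The GC and length correction removed a per-library spline (4 degrees of freedom each) over 14757 genes with a GENCODE M21 transcript, 99.3% of those tested. The steps were tested on simulated data. Alternatives were DESeq2 1.42.0, other scalings and filters, the mouse number as a block, and single libraries left out.

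The members, lists and tests were chosen with earlier results of these data known. Named genes were the members, Fndc5, genes with exons overlapping a member, the 8 genes most like Dbp, of which 1 is not reported here, and the 5 most opposite to it (predicted genes and pseudogenes passed over) and up to 4 of each of 5 lists with the smallest p; Ciart and the order by r with Dbp were chosen after their values were seen.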

Additional observations from a re-analysis of the deposited data

Results flagged for a closer look

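In 70 groups of 5 values of the named genes and library measures, 4 had a mouse far from the rest of its group by Dixon's criterion, where chance gives about 1 in 20, or 3.5 of 70. Among the members, Per3 was at 89.0 CPM in WT mouse 4, the other WT mice at 102.7 to 104.7 CPM, and Cry2 was at 149.7 CPM in KO mouse 5, the other KO mice at 163.7 to 167.9 CPM. Outside the members, Prkaa1 was at 52.3 CPM in WT mouse 4, the other WT mice at 48.5 to 48.9 CPM, and Plekhf1 was at 2.49 CPM in WT mouse 5, the other WT mice at 1.14 to 1.45 CPM.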

How the results depend on the processing

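No member passed the threshold in any of 17 alternatives, and 161 of 170 member fold changes kept their direction. With single libraries left out, those that turned were Cry1 (-0.093 to 0.011; above 0 without KO 2, WT 1 at 0.0074 or WT 5 at 0.0095), Arntl (-0.074 to 0.015; above 0 without WT 4, KO 5 at 0.0076 or WT 3 at 0.0092), Per2 (up to 0.023, without WT 3; lowest -0.13), Per1 (-0.11 to 0.00046, without WT 4) and, with the GC and length correction, Cry2 (-0.0031); Nampt was at 0.0019 with that correction. The count of genes past the threshold was 1, but 3 with DESeq2 and 8 with the replicate block, and 1 to 3 when 1 library was dropped (2 without KO 2, 3 without WT 1); the cause was not tested. With the block 0 members passed and 1 had an unadjusted p under 0.05, as 1 did without KO 4 or WT 5 and 3 did without WT 1. With the block, Npas4 passed (adjusted p = 0.0362) and Fosb and Fosl2 did not (both 0.0549). Same-numbered mice had adjacent library order numbers, from 1 (WT 1) and 2 (KO 1) to 9 (WT 5) and 10 (KO 5). Nothing else that they share is named in the labels. Their deviations correlated above 0.1 for 3 of 5 pairs, short of all 5, so the fit without the block was kept. That 6 of 10 mice correlated best with their own number is a hint of pairing, but no label states a paired design. The SE of Dbp was 0.090 with the block and 0.13 without it. The permutations over 10 mice treated them as exchangeable and took no account of this order.

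Members correlated with Dbp past the threshold numbered 0, but 1 (Nr1d1) with centring within genotype, and 0 in every other alternative; r of Nr1d1 was 0.90 to 0.95 throughout. Per2 had an r with Dbp of -0.20 to 0.26 over single libraries left out: -0.094 without KO 3, -0.047 without WT 1, -0.20 without WT 2; and -0.095 without the 2 libraries farthest in Dbp, -0.27 in the 7 libraries with lower Dbp and -0.099 with the GC and length correction. Per3 had -0.13 (without KO 1) to 0.28 (without KO 4), and -0.10 and -0.44 in those 8 and 7 libraries. Cry2 had -0.033 in the 8 libraries and -0.072 with the correction. Clock ranged over single libraries left out from -0.85 (without KO 4) to -0.37 (without WT 2). In the 7 libraries Nr1d2 had -0.58 and Cry1 -0.0029. The correction and the 7 libraries were chosen after seeing the data. The median gene's 95% interval spanned ± 0.137 in log2 fold change with 5 mice a genotype.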
